A study of Mus musculus with 6 samples.

Results

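The keratin-high cells of day 3 were 100 of the 1974 cells kept from the day 3 libraries of differentiating mouse embryonic stem cells (ESC), and of the 7096 cells kept in all 6 libraries of the series. Barcodes with UMIs of 1000 or more genes and no more than 10% mitochondrial UMIs were kept; a UMI (unique molecular identifier) stands for 1 captured transcript tag. A kept day 3 cell was called keratin-high when Krt8 and Krt18 together held at least 20 UMIs and T, the primitive-streak transcription factor brachyury, held fewer than 5. The rule found 60 of 1026 Oct1_cKO cells (5.85%; exact Clopper-Pearson 95% interval 4.49 to 7.46%) and 40 of 948 parental cells (4.22%; 3.03 to 5.70%). The difference was 1.63 percentage points in cKO over parental (Newcombe interval −0.32 to 3.58), an interval that includes 0. They were set against 585 cKO and 570 parental keratin-low cells, which held fewer than 5 Krt8 plus Krt18 UMIs and at least 20000 UMIs in all.

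The series holds 1 library for each of 6 groups, from the genotypes Oct1_cKO, written cKO here for conditional knockout, and parental, each as undifferentiated ESC, at day 3 and at day 6 of a differentiation towards mesoderm. The gene Pou2f1 encodes Oct1, a transcription factor with a POU domain; the labels do not say how or in which clone it was deleted. The ESC, which the labels call depleted without saying of what, were plated on 0.1% gelatin. Both genotypes then received N2B27 medium with the growth factor Bmp4 for 2 days, followed by DMEM-based medium with the Wnt enhancer Rspo3 and the BMP receptor inhibitor LDN-193189 for 4 days, so that day 3 followed the change of medium. Cells were detached with trypsin, and the 10x Genomics Single Cell 5′ kit tagged the 5′ ends of transcripts. With 1 library per genotype no test was possible: all intervals below cover counting error only, and a sum over cells cannot tell more transcripts per cell from more cells with transcripts.

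Keratins 8 and 18 pair to form the intermediate filaments of simple epithelia, single-layered sheets such as the trophectoderm of the blastocyst, and keratin 19 joins them in many such tissues. Ddit3 (CHOP), Trib3 and Atf5 belong to the integrated stress response, in which kinases that sense amino acid shortage, haem shortage, double-stranded RNA or misfolded protein phosphorylate the initiation factor eIF2. Most translation then falls while that of Atf4 mRNA rises, and the Atf4 protein induces these genes. Atf4 acts with C/EBP partners at a composite element called CARE.

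The day 3 libraries held 85102600 UMIs in cKO and 79229168 in parental. Keratin-high cells had a median of 79970 UMIs and 7024 genes in cKO and 87857 UMIs and 7552 genes in parental, and keratin-low cells had medians of 76880 and 84502 UMIs. No barcode was shared between the kept cells of the libraries. Scrublet marked 12 kept cKO and 5 kept parental cells as doublets, among them 1 cKO and 0 parental keratin-high cells. Pou2f1 itself measured 13.4 CPM (counts per 1e6 UMIs) in cKO and 16.5 CPM in parental keratin-high cells, a log2 ratio of −0.30 (−0.82 to 0.23), and 13.1 and 30.4 CPM in cKO and parental keratin-low cells (−1.21; −1.35 to −1.07). A 5′ tag outside a deleted part is still counted, so Pou2f1 does not measure how complete the deletion was. The parental library was mixed in a score that sets the UMI share of chromosomes 1, 6 and 8 against that of chromosome 11. Of the parental keratin-high cells 60% (24 of 40) lay on the side with chromosome 11 high and 15% on the other, whereas 25.4% and 65.8% of parental keratin-low cells did so. Of the cKO keratin-high cells, 1 of 60 lay on the chromosome 11 side and 0 on the other. With only the parental cells on the chromosome 11 side kept, 24 parental members were left, 7.55% of those cells, and 189 genes were higher and 36 lower in keratin-high than in keratin-low cells of both libraries.

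The promoters of the stress genes are shown first because several stress genes that were high together in one subset of the cells carry the same 9-letter element. The windows, from RefSeq on GRCm38.p6, run from 250 bases before to 50 after each annotated start. CARE was searched as TGATGNAAN on both strands and occurred in 3.95% of all 32841 windows, or in at least 1 window of 4.49% of the 27018 genes. It occurred in the windows of 8 of the 19 genes of the integrated stress response list that had one (Atf3, Chac1, Fgf21, Herpud1, Jdp2, Nupr1, Trib3 and Vldlr). In the list of amino acid genes under Atf4 4 of 15 genes had it (Asns, Pycr1, Slc1a4 and Slc7a11), and in the autophagy and lysosome list 1 of 13 (Ctsl). A match is a run of letters, not a shown binding site. Printed 5′ to 3′ on the strand of the gene are the 250 bases before the start of Nupr1 (chr7:126625471-126625720, minus strand), Chac1 (chr2:119350992-119351241, plus strand) and Ddit3 (chr10:127290543-127290792, plus strand); capitals mark the CARE match, which lies on the opposite strand.
Nupr1: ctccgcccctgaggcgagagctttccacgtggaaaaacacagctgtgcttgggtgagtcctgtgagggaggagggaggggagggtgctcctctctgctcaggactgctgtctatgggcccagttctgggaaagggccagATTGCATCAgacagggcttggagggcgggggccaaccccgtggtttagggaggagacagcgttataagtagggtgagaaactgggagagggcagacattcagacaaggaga
Chac1: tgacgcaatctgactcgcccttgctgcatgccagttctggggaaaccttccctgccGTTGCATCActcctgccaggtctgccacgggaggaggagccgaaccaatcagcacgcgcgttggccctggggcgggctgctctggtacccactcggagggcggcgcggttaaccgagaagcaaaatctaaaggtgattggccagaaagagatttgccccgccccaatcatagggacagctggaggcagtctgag
Ddit3: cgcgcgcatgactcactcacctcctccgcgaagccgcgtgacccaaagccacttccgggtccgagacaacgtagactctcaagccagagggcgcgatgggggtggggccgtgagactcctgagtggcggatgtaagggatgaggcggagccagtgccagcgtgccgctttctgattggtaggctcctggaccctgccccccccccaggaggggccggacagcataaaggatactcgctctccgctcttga
The Nupr1 match spans bases −111 to −103 and the Chac1 match bases −194 to −186. Trib3 had a match, TTTACATCA, just inside the transcript at +14 to +22. The windows of Ddit3, Atf5, Krt8 and Krt18 held none, which says only that these letters are not in those windows. Another element, the core TCACGTGA of the CLEAR motif of lysosomal genes, occurred in 0.974% of all windows and 1.13% of all genes, in 2 of 13 genes of the autophagy and lysosome list (Ctsd and Mcoln1) and in 0 of the 19 stress genes.

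The threshold cut a continuous range of keratin levels. The lowest, median and highest Krt8 plus Krt18 UMIs of the members were 20, 44.5 and 615 in cKO and 20, 62.5 and 1419 in parental, and the top 2 cells held 19.6% and 40.1% of these UMIs. Just inside the limit, with 20 to 24 UMIs, lay 9 cKO and 7 parental cells with median Krt8 plus Krt18 levels of 325 and 297 CPM. Just outside it, with 15 to 19 UMIs, lay 19 cKO and 7 parental cells at 258 and 123 CPM. T was undetected in 53 of the 60 cKO and 35 of the 40 parental members, and its limit removed 4 cKO and 8 parental cells with enough keratin. Krt8 (chr15:101996698-102004482) measured 621 CPM in keratin-high against 11.5 CPM in keratin-low cKO cells, and 848 against 8.92 CPM in parental cells. Krt18 (chr15:102028180-102032027) measured 430 against 13.2 CPM in cKO and 856 against 10.0 CPM in parental cells; the rule used both genes.

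Genes outside the rule climbed along the same range. Over bins of 0 to 4, 5 to 9, 10 to 19, 20 to 49 and at least 50 keratin UMIs, Krt19 measured 2.45, 4.397, 13.4, 40.7 and 158 CPM in cKO and 3.40, 5.07, 14.9, 37.5 and 281 CPM in parental cells. Tagln, the actin-binding protein transgelin, measured 46.4, 119, 153, 600 and 918 CPM in cKO, and 18.6, 88.1, 81.9, 307 and 1141 CPM in parental cells. Both genes were highest in the top bin of each library. Nanog, a factor of the pluripotent state, went the other way, with 39.98, 37.0, 27.1, 3.30 and 8.63 CPM in cKO and 66.0, 57.0, 46.9, 15.5 and 7.48 CPM in parental cells. Ddit3 climbed too but peaked in the bin of 20 to 49 UMIs, at 22.7, 21.6, 69.5, 90.1 and 77.2 CPM in cKO and 23.7, 25.5, 36.1, 242 and 148 CPM in parental cells. The share of cells with under 1% mitochondrial UMIs also changed over these bins. It was 16.2, 13.4, 30.8, 44.1 and 50% in cKO and 23.4, 15.2, 40.5, 62.5 and 58.3% in parental cells. Ddit3 by bin therefore does not separate keratin level from mitochondrial share. The bins held 519, 217, 65, 34 and 26 cKO cells and 598, 99, 42, 16 and 24 parental cells, so the top bins rest on few cells.

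**Figure D1:**
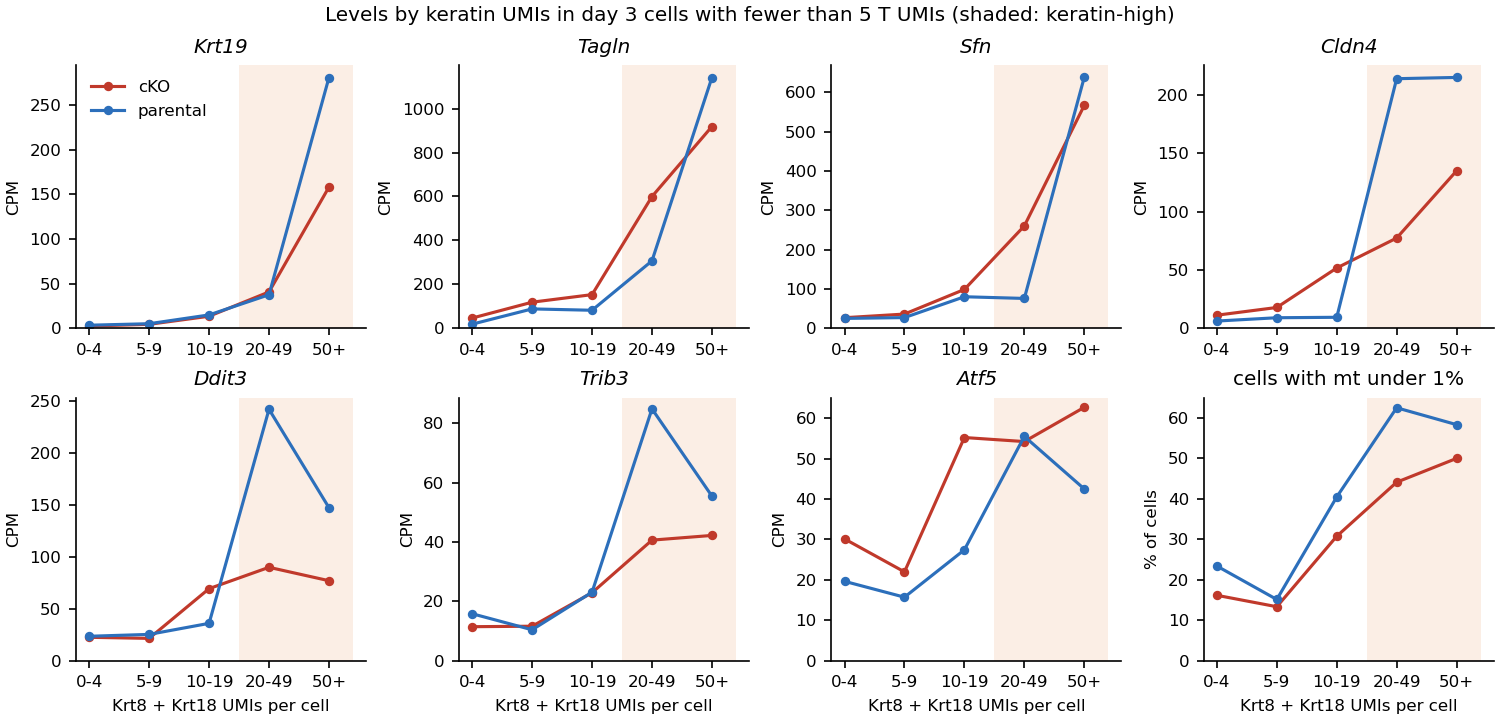
CPM of 7 genes and the share of cells with under 1% mitochondrial UMIs (vertical axes) in 5 bins of Krt8 plus Krt18 UMIs (horizontal axis), day 3 cells with fewer than 5 T UMIs, 1 line per library; shading marks the keratin-high bins. Krt19 reached 158 CPM in cKO and 281 CPM in parental cells in the top bin, while Ddit3 was highest in the bin of 20 to 49 UMIs.

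Keratin-high cells differed from keratin-low cells in 2 broad ways. Genes of epithelial junctions, actin and the cell surface were higher, and some genes of the pluripotent epiblast were lower. The classes also differed in their share of mitochondrial UMIs, and contrasts matched for it are given below. A gene was counted when it differed at least 2-fold the same way in both libraries with at least 20 CPM in the higher set. Of 5169 genes compared, 208 were higher (4.02%) and 33 lower (0.638%), with all-gene median log2 ratios of −0.06 in cKO and −0.05 in parental. Because the members were chosen on keratin and T UMIs of the same cells, these differences describe the cells and are not a test. Keratin-low cells had no T limit and held up to 63 T UMIs in cKO and 45 in parental. Genes that go with T can thus be lower through the rule itself. With keratin-low cells also held under 5 T UMIs, an alternative chosen afterwards, 194 genes were higher and 33 lower. A gene that is low in keratin-low cells entered the comparison only through its level in keratin-high cells, so the counts and medians of lists describe the genes that passed and support nothing; sums are over whole lists.

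Krt19 (chr11:100140810-100148665) led the ranking. It measured 93.1 CPM in keratin-high against 2.34 CPM in keratin-low cKO cells, a log2 ratio of 5.31 (5.01 to 5.63), and 201 against 2.99 CPM in parental cells (6.07; 5.82 to 6.34). In cells thinned to 20000 UMIs it was detected in 57.6% of keratin-high against 4.27% of keratin-low cKO cells and in 73.7% against 5.61% of parental cells. Per cell its lowest, median and highest values were 0, 44.0 and 1168 CPM in cKO members and 0, 62.7 and 1682 CPM in parental members, so the groups overlap. Krt7, another simple keratin, stayed low, at 3.45 against 0.611 CPM in cKO and 10.6 against 0.382 CPM in parental cells.

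Tagln followed, with 742 CPM in keratin-high against 43.9 CPM in keratin-low cKO cells (log2 ratio 4.08) and 870 against 17.8 CPM in parental cells (5.61). Sfn, the 14-3-3 sigma protein of epithelia, measured 397 against 24.4 CPM in cKO (4.02) and 456 against 22.1 CPM in parental cells (4.36). Plaur, the urokinase receptor, measured 62.6 against 2.99 CPM in cKO (4.39) and 115 against 1.99 CPM in parental cells (5.85). These genes of actin, epithelium and cell surface stood far apart between the classes in both libraries. Cxcl16, a chemokine held at the membrane, measured 46.8 against 3.29 CPM in cKO and 72.2 against 3.16 CPM in parental cells. Prph, an intermediate filament protein of neurons, measured 273 against 32.4 CPM in cKO and 464 against 27.3 CPM in parental cells. Prph also followed the share of mitochondrial UMIs. In members under 1% against those with at least 1% it measured 740 against 53.9 CPM in cKO and 744 against 124 CPM in parental members, and in keratin-low cells 227 against 19.1 CPM in cKO and 180 against 12.97 CPM in parental. Among the 15 highest genes were also Ahnak, Ahnak2, Phlda1, Anxa3, Csrp1 and Cldn4, each with log2 ratios between 2.82 and 5.46. Lgals3 (galectin-3) and Nrk (a kinase of the placenta) ranked among them too but leaned on single cells: the highest cell held 22% and 31% of the Lgals3 UMIs of cKO and parental members, and 1 cKO cell held 58% of the Nrk UMIs. Like Prph, Lgals3 followed the mitochondrial share, at 247 against 15.2 CPM in cKO and 904 against 51.0 CPM in parental members. Anxa3 did so less, at 156 against 57.7 CPM and 241 against 115 CPM. Ahnak2 ranked 8 among named genes higher in keratin-low cells under 1% than in the others.

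**Figure D2:**
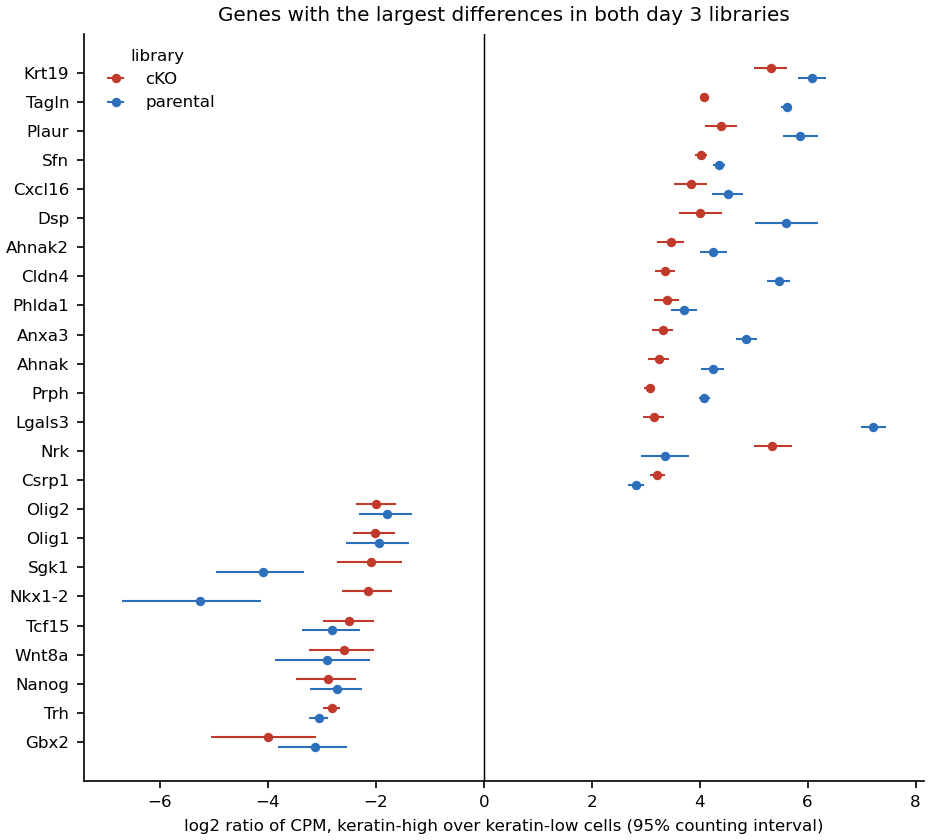
Log2 ratio of CPM in keratin-high over keratin-low cells (horizontal axis) for the 15 highest genes and 9 of the 10 lowest in both day 3 libraries, with 95% counting intervals; 1 point per library. Krt19, at 5.31 in cKO and 6.07 in parental, heads the higher genes, and Gbx2, at −3.99 and −3.13, lies at the other end.

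Of the 22 genes on the epithelial junction list, 13 were high enough to compare and 8 of them were higher (Cldn4, Cldn6, Cldn7, Dsp, Jup, Pkp2, Perp and Cgn), with list medians of 1.14 in cKO and 2.05 in parental. The whole list summed to 1421 CPM in keratin-high against 881 CPM in keratin-low cKO cells and to 1689 against 642 CPM in parental cells. Cldn4, a tight junction claudin, measured 103 CPM in keratin-high against 10.0 CPM in keratin-low cKO cells and 214 against 4.86 CPM in parental cells. Dsp, desmoplakin, which ties keratin filaments to desmosomes, measured 28.8 against 1.79 CPM in cKO and 32.1 against 0.663 CPM in parental cells. Both stood well apart between the classes. Jup (plakoglobin) and Pkp2 (plakophilin 2), further desmosome components, measured 34.3 and 27.4 CPM in cKO and 48.8 and 36.4 CPM in parental keratin-high cells, against 11.5 and 13.01 CPM in cKO and 9.04 and 14.8 CPM in parental keratin-low cells. Epcam and Cdh1, adhesion molecules that ESC already carry, were not counted: Epcam measured 536 against 526 CPM in cKO and 531 against 360 CPM in parental cells. The remaining 9 members lay below the level limit.

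The actin cytoskeleton and migration list had 16 of 20 compared members higher and 0 lower, with medians of 1.37 in cKO and 1.89 in parental. The whole list summed to 4358 CPM in keratin-high against 1635 CPM in keratin-low cKO cells and to 5377 against 1438 CPM in parental cells. Tpm1, a tropomyosin that lines actin filaments, measured 745 CPM in keratin-high against 185 CPM in keratin-low cKO cells and 714 against 148 CPM in parental cells. Cnn2, a calponin, measured 169 against 36.6 CPM in cKO and 120 against 31.7 CPM in parental cells. The annexin Anxa3 measured 89.0 against 8.96 CPM in cKO and 184 against 6.33 CPM in parental cells. Of the YAP target list, genes switched on by the mechanical sensor YAP, 2 of 5 compared members were higher. Cyr61 measured 167 against 37.4 CPM in cKO and 132 against 19.3 CPM in parental cells, and Ctgf measured 106 against 42.3 CPM in cKO and 50.7 against 20.6 CPM in parental cells. Immediate early genes, which are switched on quickly by growth factors and stress, had 7 of 9 compared members higher (medians 1.28 and 2.05). Atf3 measured 52.3 against 7.19 CPM in cKO and 91.3 against 7.24 CPM in parental cells, with 40% of the parental UMIs in 1 cell. Junb measured 68.1 against 20.6 CPM in cKO and 72.5 against 16.4 CPM in parental cells.

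Among the 10 lowest genes were Gbx2, Trh, Nanog, Wnt8a, Tcf15, Nkx1-2, Sgk1, Olig1 and Olig2, ranked by the smaller of both libraries' ratios. Gbx2, a homeobox gene of ESC and early neural tissue, measured 2.03 CPM in keratin-high against 32.2 CPM in keratin-low cKO cells, a log2 ratio of −3.99 (−5.05 to −3.11), and 5.84 against 51.1 CPM in parental cells (−3.13; −3.81 to −2.53). Trh, thyrotropin-releasing hormone, measured 69.1 against 487 CPM in cKO and 66.4 against 553 CPM in parental cells. Nanog measured 5.68 against 42.2 CPM in cKO and 10.1 against 66.4 CPM in parental cells, and 1 cell held 61% of the cKO UMIs. Of the primed epiblast list, the later pluripotent state, 4 of 8 compared members were lower (Dnmt3a, Dnmt3b, Lef1 and Fst), with medians of −0.71 in cKO and −1.82 in parental. Dnmt3b, a DNA methyltransferase of the epiblast, measured 153 against 366 CPM in cKO and 103 against 364 CPM in parental cells. The general pluripotency list had 0 of 10 members counted, with medians of −0.37 and −1.01. Pou5f1 (Oct4) remained at 332 CPM in keratin-high against 498 CPM in keratin-low cKO cells and at 222 against 526 CPM in parental cells. Naive pluripotency genes were split, with Klf5 higher and Nanog and Tdh lower of 7 compared.

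Cell cycle lists held no counted gene, although the S phase median lay at −0.52 in cKO and −1.06 in parental (0 of 18 counted) and that of mitosis at −0.26 and −0.22 (0 of 22). Stress and damage lists outside the integrated stress response differed among themselves. The unfolded protein response of the endoplasmic reticulum had 0 of 12 compared members counted, and the tRNA synthetases had 0 of 13. The heat shock list had 2 of 10 higher, Hspb1 and Hspb8, both small heat shock proteins. Hspb1 measured 444 against 143 CPM in cKO and 958 against 138 CPM in parental cells. Among p53 targets 5 of 15 were higher: Mdm2, Bbc3, Plk2, Btg2 and Perp. Mdm2, the ligase that degrades p53, measured 152 against 57.4 CPM in cKO and 171 against 57.4 CPM in parental cells.

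The stress markers that accompany the keratins in the working description of these cells were higher on average. Ddit3 (chr10:127290774-127296288) measured 84.3 CPM in keratin-high against 18.99 CPM in keratin-low cKO cells (2.15; 1.98 to 2.32) and 178 against 19.9 CPM in parental cells (3.17; 3.02 to 3.31). Trib3 (chr2:152337422-152344032), a pseudokinase, measured 41.4 against 9.63 CPM in cKO (2.10) and 65.0 against 13.8 CPM in parental cells (2.24). Atf5 (chr7:44812256-44816658), a transcription factor also tied to mitochondrial stress, measured 58.0 against 26.0 CPM in cKO (1.16) and 46.7 against 17.02 CPM in parental cells (1.46). The integrated stress response list had 7 of 13 compared members higher (Atf3, Atf5, Ddit3, Trib3, Ddit4, Ppp1r15a and Cebpb), with medians of 1.12 and 1.86. Atf4, which is regulated mainly by translation, measured 302 against 171 CPM in cKO and 332 against 183 CPM in parental cells. Of the amino acid genes under Atf4, 1 of 12 was higher, Cth, an enzyme of cysteine synthesis.

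These averages covered 2 kinds of cell that differed in mitochondrial UMIs. In 28 of the 60 cKO members (46.7%; 33.7 to 60.004%) and 24 of the 40 parental members (60%; 43.3 to 75.1%) under 1% of the UMIs were mitochondrial, with medians of 0.087% and 0.204%. In the remaining 32 cKO and 16 parental members the medians were 4.02% and 4.36%. The 1% limit was chosen after the values were seen, and 4 cKO and 7 parental members lay between 0.5% and 2%. Of all kept day 3 cells, 15.7% in cKO and 20.9% in parental fell under the limit. The cKO and parental shares among members differed by −13.3 points (−31.5 to 6.47). The low-mitochondrial members were shallower, with medians of 56893 UMIs in cKO and 80741 in parental, against 93573 and 108004 UMIs in the other members. Lower mitochondrial genes follow from this split. Their median log2 ratios were −4.43 over 12 genes in cKO and −4.01 over 13 genes in parental. In cKO mt-Nd6 was left out because it was undetected in low-mitochondrial members. Malat1, a long non-coding RNA kept in the nucleus, measured 22306 CPM in low-mitochondrial against 7739 CPM in other cKO members and 16175 against 5992 CPM in parental members.

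**Figure D3:**
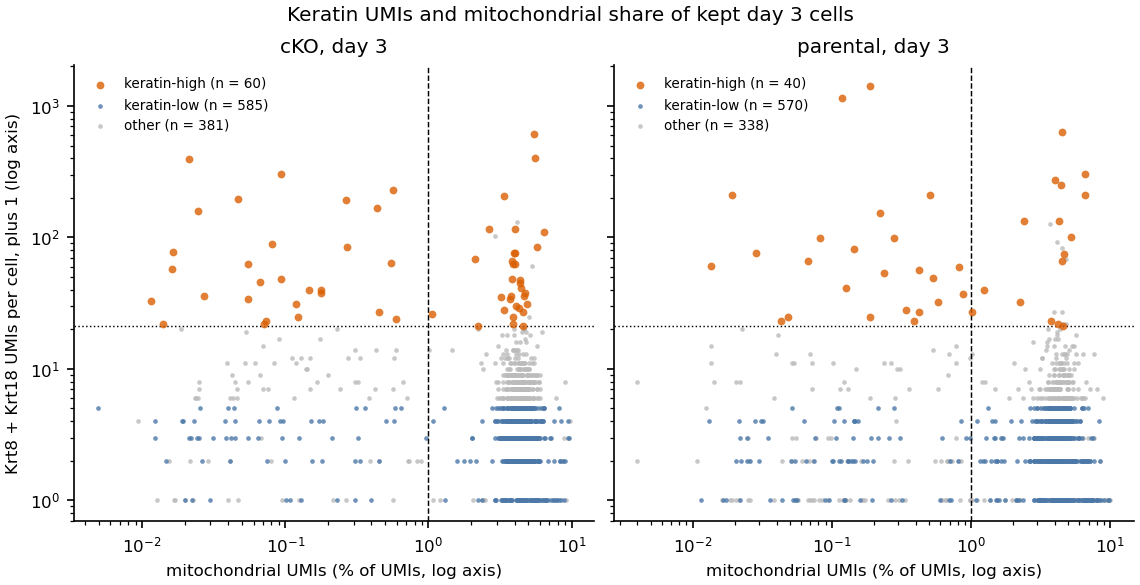
Krt8 plus Krt18 UMIs (vertical log axis, 1 added) against the percent of mitochondrial UMIs (horizontal log axis) for every kept day 3 cell, cKO left and parental right; orange marks keratin-high, blue keratin-low and grey other cells, and the dashed line is 1%. Keratin-high cells lie in both clouds, 28 of 60 in cKO and 24 of 40 in parental under the line.

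The stress markers followed the mitochondrial share. In low-mitochondrial against other cKO members, Ddit3 measured 207 against 26.8 CPM, Trib3 95.4 against 16.1 CPM and Atf5 153 against 13.7 CPM. In parental members they measured 250 against 91.5 CPM, 102 against 19.9 CPM and 79.0 against 7.63 CPM in the same order of genes. Each of these 3 genes was at least 2-fold apart in both libraries. Summed per cell, the 3 genes had medians of 366 CPM in low-mitochondrial against 32.3 CPM in other cKO members, and of 332 against 19.7 CPM in parental members. The ranges overlapped, from 0 to 1320 CPM against 0 to 728 CPM in cKO and from 0 to 1030 against 0 to 982 CPM in parental members. Spearman's rho between the summed integrated stress response list and the mitochondrial share was −0.60 over the 60 cKO and −0.57 over the 40 parental members; both are shares of the same UMIs of a cell.

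Of 5210 genes compared within the members, 179 were higher (3.44%) and 84 lower (1.61%) in the low-mitochondrial cells, with all-gene medians of −0.10 and −0.05. The integrated stress response list had 10 of 14 members higher (medians 1.81 and 1.42). Nupr1, a small stress-induced chromatin protein whose promoter is printed above, measured 237 against 5.95 CPM in cKO and 355 against 66.9 CPM in parental members. Chac1, an enzyme that breaks down glutathione, measured 40.7 against 8.93 CPM in cKO and 23.3 against 8.21 CPM in parental members. Atf4 mRNA itself measured 559 against 182 CPM in cKO and 490 against 141 CPM in parental members. The autophagy and lysosome list had 7 of 14 higher. Sqstm1, the autophagy receptor p62, measured 306 against 48.5 CPM in cKO and 573 against 131 CPM in parental members, and Hexa, a lysosomal hexosaminidase, 272 against 41.1 CPM and 267 against 58.7 CPM. Of the amino acid genes under Atf4, 4 of 14 were higher (Psph, Shmt2, Slc7a1 and Slc1a5). Txnip, a glucose-responsive inhibitor of thioredoxin, had 0 UMIs in low-mitochondrial members of both libraries against 28.0 CPM in other cKO and 45.2 CPM in other parental members; with a floor of 3 counts over the group the log2 ratio was at most −3.87 in cKO and −4.96 in parental. Dnmt3b measured 35.0 against 208 CPM in cKO and 45.1 against 174 CPM in parental members.

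Krt19, Cldn4 and Dsp did not divide the members in the same way in both libraries, whereas Sfn did. The epithelial junction list had 0 of 15 members counted between low-mitochondrial and other members. Its medians were 0.49 in cKO and 0.04 in parental. In cKO members Cldn4 measured 205 against 55.1 CPM and Dsp 63.6 against 12.5 CPM. In parental members Cldn4 measured 238 against 186 CPM and Dsp 33.0 against 31.1 CPM. The actin gene Tagln measured 728 against 748 CPM in cKO and 710 against 1062 CPM in parental members. Krt19 measured 177 against 53.9 CPM in cKO but 155 against 258 CPM in parental members, opposite directions in the libraries. The keratins of the rule differed as well. Krt8 plus Krt18 per cell had medians of 913 against 433 CPM in cKO and 949 against 849 CPM in parental members. The part of this keratin difference in the cKO values of Krt19, Cldn4 and Dsp was not tested. Sfn measured 216 against 482 CPM in cKO and 198 against 767 CPM in parental members, at least 2-fold lower in low-mitochondrial members of both libraries. The actin list had 4 of 21 higher, the annexins Anxa1 and Anxa3 and the galectins Lgals1 and Lgals3.

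**Figure D4:**
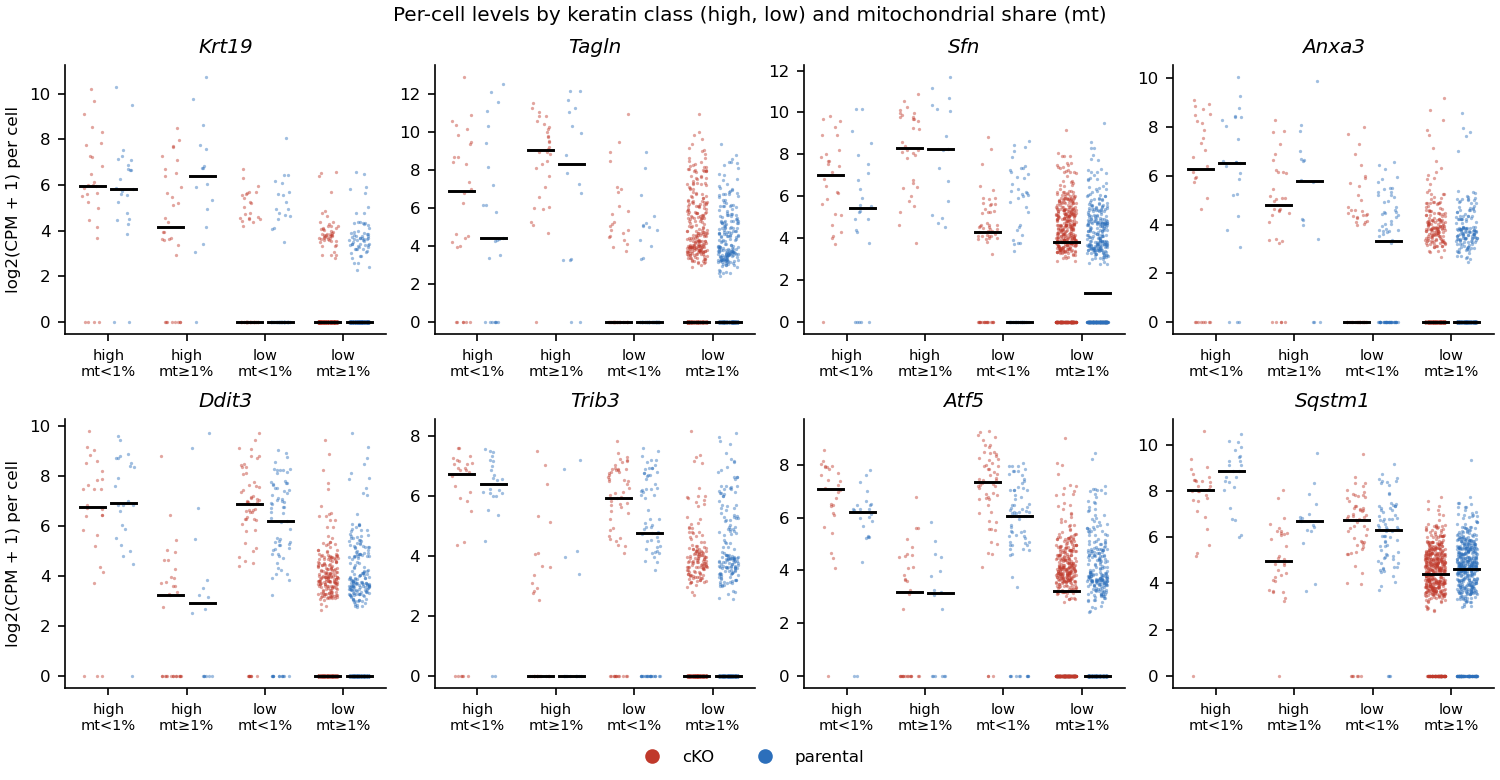
Per-cell log2(CPM + 1) of 8 genes (vertical axes) in keratin-high and keratin-low cells, each split at 1% mitochondrial UMIs (horizontal axes); points are cells coloured by library and black bars are medians. The 3 stress markers stand higher in the classes under 1%, and Krt19 and Tagln stand higher in the keratin-high classes.

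Keratin-low cells also divided in the stress markers by mitochondrial share. Of them 59 in cKO and 74 in parental had under 1% mitochondrial UMIs. Ddit3 measured 163 CPM in these against 9.12 CPM in the other keratin-low cKO cells and 110 against 11.4 CPM in parental cells. Atf5 measured 209 against 13.5 CPM in cKO and 82.5 against 10.9 CPM in parental cells. Of 5072 genes compared, 203 were higher (4%) and 59 lower (1.16%) in low-mitochondrial keratin-low cells, with all-gene medians of −0.10 and −0.09. The integrated stress response list had 11 of 13 higher (medians 2.14 and 1.72), the lysosome list 8 of 12 and the p53 list 8 of 15. Malat1 measured 17994 against 4864 CPM in cKO and 10233 against 3046 CPM in parental cells. Dnmt3b was among the 10 lowest genes of this divide. Naive pluripotency genes had 4 of 9 compared genes higher (Klf2, Klf5, Tfcp2l1 and Tbx3). Among the keratin-high members 0 of 5 compared genes were higher and Dppa5a was lower. The 2 counts are over unlike sets of genes, because a gene was compared only above the level limit. They do not show that the divides differ, and the difference between the 2 divides was not tested.

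Matched for mitochondrial share, the keratin-high cells still differed in epithelial and actin genes, while few stress genes were counted. With at least 1% mitochondrial UMIs on both sides, 143 of 5031 genes were higher (2.84%) and 26 lower (0.517%), with all-gene medians of −0.04 and −0.05. There 6 of 11 junction genes, 11 of 19 actin genes and 6 of 9 immediate early genes were higher, against 2 of 11 integrated stress response genes, Atf3 and Ddit3. Among the 10 lowest genes of this contrast were Nanog, Wnt8a, Gbx2, Trh and Dnmt3a. Ddit3 measured 26.8 CPM in keratin-high against 9.12 CPM in keratin-low cKO cells and 91.5 against 11.4 CPM in parental cells. Atf5 measured 13.7 against 13.5 CPM in cKO and 7.63 against 10.9 CPM in parental cells. With under 1% on both sides, 134 of 5139 genes were higher (2.61%) and 57 lower (1.11%), with all-gene medians of −0.04 and −0.00070. There 8 of 15 junction genes and 12 of 20 actin genes were higher, against 1 of 14 integrated stress response genes, Atf3. The 10 lowest genes under 1% included Tcf15, Lef1 and Trh. Krt19 had log2 ratios of 3.82 in both libraries. Ddit3 had 0.34 in cKO (0.14 to 0.55) and 1.18 in parental (1.001 to 1.37), and Atf5 had −0.45 in cKO (−0.67 to −0.23) and −0.06 in parental (−0.34 to 0.21). The stress markers of the working label were thus all high in the low-mitochondrial members, and keratin-low cells under 1% carried them too. The summed Ddit3, Trib3 and Atf5 level had medians of 366 CPM in keratin-high against 435 CPM in keratin-low cKO cells under 1% and of 332 against 221 CPM in parental cells. In the members with at least 1% Ddit3 was counted. Trib3 measured 16.1 against 5.47 CPM in cKO and 19.9 against 10.3 CPM in parental cells and was not counted, and Atf5 did not stand apart. Summed per cell, the 3 genes had medians of 32.3 against 16.3 CPM in these cKO cells and 19.7 against 12.5 CPM in parental cells. Those parental members had an upper quartile of 58.8 CPM and a highest value of 982 CPM, so their pooled Ddit3 level leaned on few cells. The whole integrated stress response list had medians of 790 against 629 CPM in cKO and 610 against 728 CPM in parental cells.

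**Figure D5:**
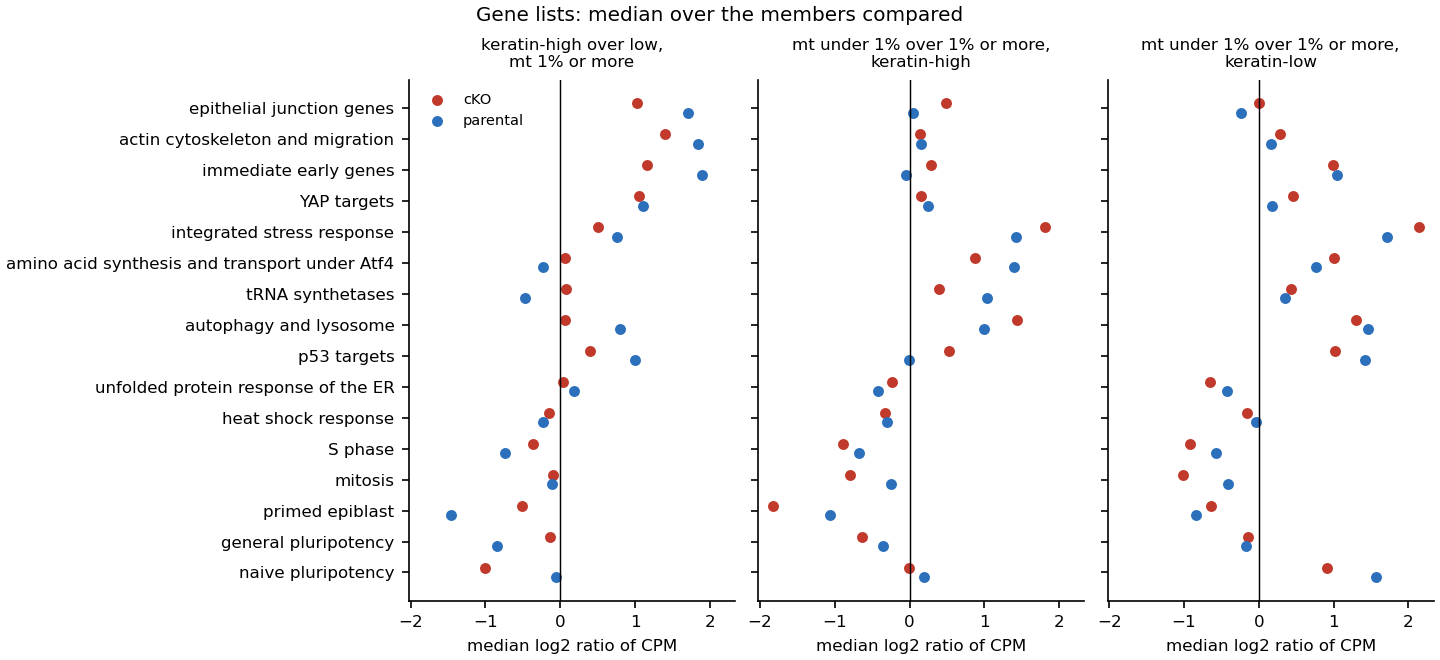
Median log2 ratio (horizontal axes) over the compared members of 16 gene lists in 3 contrasts, cKO and parental as separate points. Junction and actin lists lie to the right in the keratin contrast at 1% or more, while the integrated stress response list lies to the right in both contrasts of mitochondrial share, at 1.81 and 1.42 within keratin-high cells.

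Clustering of the day 3 cells of both libraries without batch correction placed most members in 2 clusters. Of the 100 members, 53 fell in a cluster of 261 cells, 49 of them low-mitochondrial, and 43 in a cluster of 159 cells, 42 of them not. The members made up 20.3% and 27.0% of these clusters, and the last 4 lay in other clusters. The clusters were formed on the same values and are a description.

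Most defining genes of other keratin-bearing cell types lay below the level limit, although some lists summed higher in keratin-high cells. Of 18 trophoblast genes 17 lay below the level limit and Lgals3 was the only one compared. The list summed to 161 CPM in keratin-high against 36.1 CPM in keratin-low cKO cells and to 586 against 57.9 CPM in parental cells. Lgals3 alone measured 89.0 CPM in cKO and 518 CPM in parental keratin-high cells, so it made up most of both keratin-high sums. As given above, Lgals3 leaned on single cells. Elf5 had 0 UMIs in members of both libraries, and Gata3 measured 4.46 and 3.98 CPM in cKO and parental members against 0.232 and 0.221 CPM in keratin-low cells. Of 11 surface ectoderm genes 10 lay below the limit; the list summed to 135 against 39.9 CPM in cKO and to 60.5 against 29.0 CPM in parental cells. Wnt6, a Wnt ligand, measured 51.3 against 2.49 CPM in cKO and 16.2 against 3.56 CPM in parental cells. Trp63, which defines stratified epithelium, had 1 UMI in cKO and 0 in parental members. None of the 8 stratified keratins reached the limit; they summed to 15.4 against 11.03 CPM in cKO and to 58.4 against 9.75 CPM in parental cells. Of the endoderm list 3 of 22 genes were compared and Sparc, a matrix protein, was higher, at 278 against 74.9 CPM in cKO and 337 against 66.2 CPM in parental cells, while Sox17 and Gata6 each had at most 5 UMIs in the members of a library. Of the 10 amnion and extraembryonic mesoderm genes only Ahnak was compared, and 2-cell-like genes had 0 UMIs in the members. Of the fibroblast list, Tagln was higher and Mgp lower; Mgp measured 0.811 against 180 CPM in cKO and 1.06 against 124 CPM in parental cells, and 71% of its parental keratin-low UMIs came from 1 cell. The part of rare other cells in the keratin-low class was not tested.

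Between the genotypes, cKO keratin-high cells had 42 genes higher by 2-fold or more (0.768% of 5466) and 136 lower (2.49%) than parental ones, with an all-gene median of −0.05. Scaled by edgeR's TMM factors 55 were higher and 92 lower, and by median-of-ratios factors 60 and 87. Against only the parental members on the chromosome 11 side, 97 were higher and 182 lower. Many of these genes rest on few cells. At least 50% of the parental UMIs of 21 of the 136 lower genes sat in 1 cell, which was the same parental cell for 12 of them; without that cell 113 genes were lower. For 3 of the 42 higher genes 1 cKO cell held as much, the same cell for 2 of them, and without it 38 were higher. Crlf2, a cytokine receptor subunit, was spread over the cells, with 2.03 CPM in cKO against 70.9 CPM in parental members (−5.13; −6.20 to −4.23) and UMIs in 37 of the 40 parental cells. It also differed in keratin-low cells, at 1.08 against 12.9 CPM. Ltb, lymphotoxin beta, measured 62.4 CPM in cKO against 4.51 CPM in parental members (3.79), nearly all of it in cells with at least 1% mitochondrial UMIs, where it measured 90.2 against 2.93 CPM. Id3, an inhibitor of DNA binding induced by BMP signals, measured 53.1 against 9.29 CPM (2.52), and 76.5 against 17.01 CPM in the same cells. Plat, Sbsn and Lefty2, among the lowest genes, had 95.5%, 87.6% and 72.8% of their parental UMIs in 1 cell.

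In sums over cells, the gap between the genotypes in Krt19 and Ddit3 lay mainly in the members with at least 1% mitochondrial UMIs. This was not so for Trib3 and Atf5. Krt19 had a log2 ratio of cKO over parental of −1.11 in all members, 0.19 in low-mitochondrial and −2.26 in other members. Ddit3 had −1.08 in all, −0.27 in low-mitochondrial and −1.77 in other members. Per cell, Ddit3, Trib3 and Atf5 together had medians of 32.3 CPM in the other cKO and 19.7 CPM in the other parental members, the opposite order. The upper quartile of these parental members was 58.8 CPM and the highest value 982 CPM, so their pooled Ddit3 level leaned on few cells. Trib3 had −0.65 in all, −0.10 (−0.41 to 0.21) in low-mitochondrial and −0.31 (−0.96 to 0.35) in other members. Atf5 had 0.31 in all, 0.95 (0.66 to 1.25) in low-mitochondrial and 0.84 (−0.07 to 1.86) in other members. With 32 cKO and 16 parental cells behind the other members and 1 library per genotype, no genotype effect can be told apart from differences between libraries or from what the chromosome score marks, which also differed between cKO and parental members, and the difference between the mitochondrial classes was not tested.

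The same keratin rule found cells at the other stages that shared some of the genes named above and differed in others. It took 60 of 530 cKO ESC (11.3%) and 50 of 1396 parental ESC (3.58%), and at day 6 it took 906 of 1650 cKO cells (54.9%) and 346 of 1546 parental cells (22.4%). The ESC libraries carry another number at the start of their titles, whose meaning is not stated. Trib3 in keratin-high cells of ESC, day 3 and day 6 measured 14.4, 41.4 and 6.23 CPM in cKO and 7.97, 65.0 and 3.39 CPM in parental. Ddit3 measured 51.9, 84.3 and 40.8 CPM in cKO and 94.6, 178 and 16.1 CPM in parental. Over all keratin-high cells both were highest at day 3. With at least 1% mitochondrial UMIs Ddit3 measured 52.2, 26.8 and 40.2 CPM in cKO, lowest at day 3, and 94.3, 91.5 and 12.4 CPM in parental, where ESC and day 3 were close. Trib3 in the same cells measured 14.5, 16.1 and 5.87 CPM in cKO and 8.03, 19.9 and 3.07 CPM in parental. The ESC libraries held only 4 cKO and 2 parental keratin-high cells under 1%. Krt7 measured 68.9, 3.45 and 312 CPM in cKO and 105, 10.6 and 214 CPM in parental, and H19, an imprinted non-coding RNA of extraembryonic and mesodermal tissue, 76.7, 17.8 and 268 CPM in cKO and 470, 4.25 and 406 CPM in parental. Both were lowest at day 3. Tagln measured 41.8, 742 and 763 CPM in cKO and 8.31, 870 and 1840 CPM in parental. Epithelial genes were shared by the stages. Sfn measured 1071, 397 and 419 CPM in cKO and 467, 456 and 319 CPM in parental. Cldn4 measured 297, 103 and 186 CPM in cKO and 277, 214 and 134 CPM in parental. Both were higher than in keratin-low cells of the same stage and library. The low-mitochondrial share of keratin-high cells was 6.67%, 46.7% and 20.3% in cKO and 4%, 60% and 20.5% in parental, against 11.7%, 15.7% and 31.9% of all kept cKO cells and 7.52%, 20.9% and 21.4% of all kept parental cells. The low-mitochondrial keratin-high cells had median UMIs of 11413, 56893 and 8628 in cKO and 11459, 80741 and 6116 in parental. They were thus far shallower in ESC and at day 6 than at day 3, and the shares may not count the same kind of cell.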

How the data were processed

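The authors deposited UMI counts for 31053 genes per cell barcode, made with Cell Ranger 3.1.0 per the file headers, on mm10 per the submitters' processing notes; the annotation used for counting is not given in the sources used here. Every deposited count was a whole number. Gene positions came from GENCODE M21 (GRCm38), matched by Ensembl identifier for 30934 genes, and promoters from RefSeq.

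The members and the 35 gene lists were chosen with earlier results of these data known. UMIs were summed over the cells of a class within a library and scaled to CPM. Intervals are 95% and exact: Poisson for CPM, conditional binomial for log2 ratios, Clopper-Pearson for shares. A difference needed at least 2-fold and at least 20 CPM in the higher set, in both libraries for contrasts within a library. Ratios of list medians and rankings had 1 CPM added; a gene with 0 UMIs in a class was set to a floor of 3 counts summed over the class. A list's summed CPM takes all its members.

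Genes named by size were the 15 highest and 10 lowest by the smaller of both libraries' log2 ratios, with UMIs in at least 20% of cells of the higher set; excluded were Krt8, Krt18, T, genes without a name and those for mitochondrial transcripts or ribosomal proteins. Added to them were the 6 marker genes, up to 4 members per list with the largest ratios and 6 genes each way between genotypes. Other genes were named after their values were seen. Of the lowest genes 1 is not reported here. Clustering used 2000 variable genes, 30 principal components, 15 neighbours and Leiden resolution 0.8. The chromosome score, its limit of 0.25 and the 1% mitochondrial limit were chosen after the data were seen. The rule has no doublet filter; Scrublet was an alternative. Other alternatives changed scaling, weighting, level limit, cell filters, keratin, T and depth limits and the comparison cells. The procedure was tested on simulated data. Software was Python 3.11.15, NumPy 2.4.6, SciPy 1.17.1, pandas 2.3.3, Scanpy 1.11.5, statsmodels 0.14.6 and edgeR 4.0.16, which gave only TMM factors.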

Additional observations from a re-analysis of the deposited data

Results flagged for a closer look

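Dppa3, a maternal factor of naive pluripotent and germ cells, went opposite ways in the libraries. Its log2 ratio of keratin-high over keratin-low cells was −1.03 in cKO (15.002 against 30.7 CPM) and 2.03 in parental (126 against 30.9 CPM). In parental members 1 cell held 60.1% of the Dppa3 UMIs, and 40% of the cells held any in either library. The difference between the genotypes was not tested.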

How the results depend on the processing

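No paired analysis was possible because each group holds 1 library. Over 20 alternatives, 234 counts and shares stayed within 1.5 times or their interval and 36 did not. Ratios were rerun for selected genes between keratin classes and between mitochondrial classes, and none of at least 2-fold changed sign. Most named genes and all ratios between genotypes were not rerun. At least 5 CPM as the level limit gave 482 genes higher and 80 lower in keratin-high cells, 370 and 226 in low-mitochondrial members, and 152 and 511 in cKO. At least 10 keratin UMIs gave 125 cKO cells (12.2%) and 82 parental cells (8.65%), 106 genes higher and 14 lower, 8 actin and 1 primed epiblast gene, and 10 and 32 genes in cKO. At least 40 gave 32 (3.12%) and 26 cells (2.74%), and 65 genes higher in cKO. Limits scaled to depth gave 7.80% in cKO and 64 parental cells (6.75%). Without a T limit 2 primed epiblast genes were lower, 133 genes were lower in low-mitochondrial members, and 26 were higher and 73 lower in cKO. A mitochondrial limit of 0.5%, chosen after seeing the data, gave 91 genes higher in low-mitochondrial members and 3 lysosome genes. With only parental cells of a chromosome score under −0.25, also chosen afterwards, there were 24 parental members (7.55%), 145 genes lower in low-mitochondrial members and 97 higher in cKO. Equal weight per cell gave 50 genes lower in keratin-high cells, and median-of-ratios factors 87 lower in cKO. The lower level limit admits more genes and the other limits change the cells; otherwise the cause was not tested. Of the rerun values of the selected single genes 361 moved and 537 did not. The members number 60 and 40 cells, so single cells weigh heavily, and genes under 20 CPM were not judged.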
